A study of Equus caballus with 26 samples.

Results

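The mRNA of 10 inflammatory cytokines and chemokines (TNF, IL6, CXCL8, CCL2, CCL3, CCL5, CXCL10, IL15, TGFB1 and OSM) was followed in the whole blood of horses sampled around endurance competitions of 160 km. The study's methods name 3 French competitions, and the competition of a horse was not a term in any test. The 10 genes were taken by name among the 24415 gene names of an equine Agilent array of 1 colour, CXCL8 under its older name IL8 and OSM through its description as oncostatin M, and they had 32 probes in all. Where a gene had several probes, the brightest by mean signal over all arrays was used. The experimental set, labelled training, held 3 geldings (horses 2, 32 and 41), each sampled at T0, the baseline before the competition, and again at T1, after it. The validation set held 7 other horses sampled at T0 only (3 females and 4 geldings) and 13 others sampled at T1 only (3 females and 10 geldings). There were thus 26 arrays of 23 horses. The recruited horses were Arabian or half-Arabian and aged 10 ± 2 years (SEM), with all arrays under 1 breed label. RNA came from whole blood drawn into PAXgene tubes, without sorting of cells. According to the study's methods every validation horse sampled at T1 completed the ride. In the study as a whole, 10 of 13 validation horses sampled at T0 failed a veterinary check. How many of the 7 followed here finished was not determined, and time and outcome cannot be told apart in that set.

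Cytokines and chemokines are small secreted proteins through which leukocytes direct one another. Chemokines draw cells along a gradient: CXCL8 acts on neutrophils through CXCR2, CCL2 on monocytes, CCL3 and CCL5 on monocytes and lymphocytes, and CXCL10 on activated T cells through CXCR3. TNF and IL6 are the classical cytokines of acute inflammation, OSM is a cytokine of the IL6 family made by neutrophils, monocytes and T cells, IL15 maintains NK and memory T cells, and TGFB1 restrains leukocytes and is released from a latent complex. Long exercise is known to raise the number of circulating neutrophils and to lower that of lymphocytes.

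A level is here the log2 signal of a probe after subtraction of its array's 75th percentile, so that a level of 0 marks a probe as bright as that percentile. The levels of different probes are not on one scale and are not set against each other. The scanner software marks each spot as well above background or not, and between 60.4% and 75.4% of the probes carried that mark on an array (median 68.3%). The tissue label was checked against its markers: all 10 neutrophil markers, all 9 monocyte markers and 8 of the 9 T cell markers were well above background on every array, whereas of the 6 muscle genes ACTA1 was so on 26 arrays, TNNT1 on 24, CKM on 19, MYH7 on 12, MB on 2 and MYL2 on 1. The arrays lay on 18 slides scanned on 8 days, and 5 of these days held both time points of the validation set. Each of these 5 days held a single array of at least 1 time point, so that differences within a day are coarse. One array (validation horse 34, T1) came from a single scan pass and held all 431 saturated spots of the series, none of them from a probe of the 10 genes.

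CCL2 and, on most arrays, CXCL10 were not detected in blood cells. The other 8 genes were well above background on all 26 arrays. By the probe used, CCL2 was not well above background on any of the 10 arrays taken at T0, and at T1 it was so in 1 of 3 experimental and 1 of 13 validation horses. CXCL10 was well above background in 1 of 3 experimental horses at T0 and 1 of 3 at T1, in 5 of 7 validation horses at T0 and in 1 of 13 at T1. IL6 lay above background throughout but was dim, with raw signals of 15.97 to 109.

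The probes carry the identity of each gene, and the windows of at most 30 bases shown here mark where 2 probes of a gene are the same oligonucleotide in part and where they are separate. Those of 60 bases have positions on EquCab1, the build named in the file headers. The 50-base probes added for this design have none and are known by gene name only. The brightest CXCL8 probe lay at chr3:37424174-37424233 (plus strand). Of its other 6 probes, 5 were tiled 1 base apart over chr3:37422771-37423112 across a genomic gap of 278 bases, and the first and the last of these shared 56 of 60 bases (capitals mark the shared part of each window), so that the 5 amount to 1 measurement.
CXCL8, mRNA base 938, bases 1 to 30: tttttgcatgaatttggaaaagtgggaaag
CXCL8, mRNA base 247, bases 1 to 30: aatgAGAGTGATTGAGAGTGGGCCACACTG
CXCL8, mRNA base 251, bases 1 to 30: AGAGTGATTGAGAGTGGGCCACACTGcgaa

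For TNF and IL6 the probes had nothing in common beyond a run of 6 bases and differed in whether they gave a signal, as described with those genes. The 60-base probe of TNF lay at chr20:24701816-24701875 and that of IL6 at chr4:53966444-53966503, both on the plus strand. OSM rested on a single probe at chr8:6504930-6504989 (plus strand).
TNF, 60-base probe, bases 1 to 30: atcattgccctgtgaggggggtacgtccgt
TNF, 50-base probe, bases 1 to 30: ctggagaagggtgatcaactcagcgctgag
IL6, 60-base probe, bases 1 to 30: acagaatgagtggctgaagaacacaacaac
IL6, 50-base probe, bases 1 to 30: ttgtagttcatgggcattccttcctctggt
OSM, 60-base probe, bases 1 to 30: aatgaacatccgtgggttccagaacaacat

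The first question was which of the 10 genes differed between T1 and T0. In the experimental set 1 of the 8 genes tested passed the threshold (CXCL8, higher), against 10.2% of the 17486 gene names tested (6.2% higher and 3.96% lower). In the validation set 5 of 8 passed, with CXCL8 and CCL3 higher and TNF, CCL5 and OSM lower, against 44.2% of 17403 gene names (20.3% higher and 23.9% lower). Against so large a share of all gene names, 5 of 8 is not a result about the 10 genes as a group, and the genes are described one by one. The median log2 fold change of the 8 genes was -0.26 in the experimental and -0.30 in the validation set, beside 0.03 and -0.07 over all gene names tested. All tests were made with limma and adjusted over every gene name tested.

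**Figure D1:**
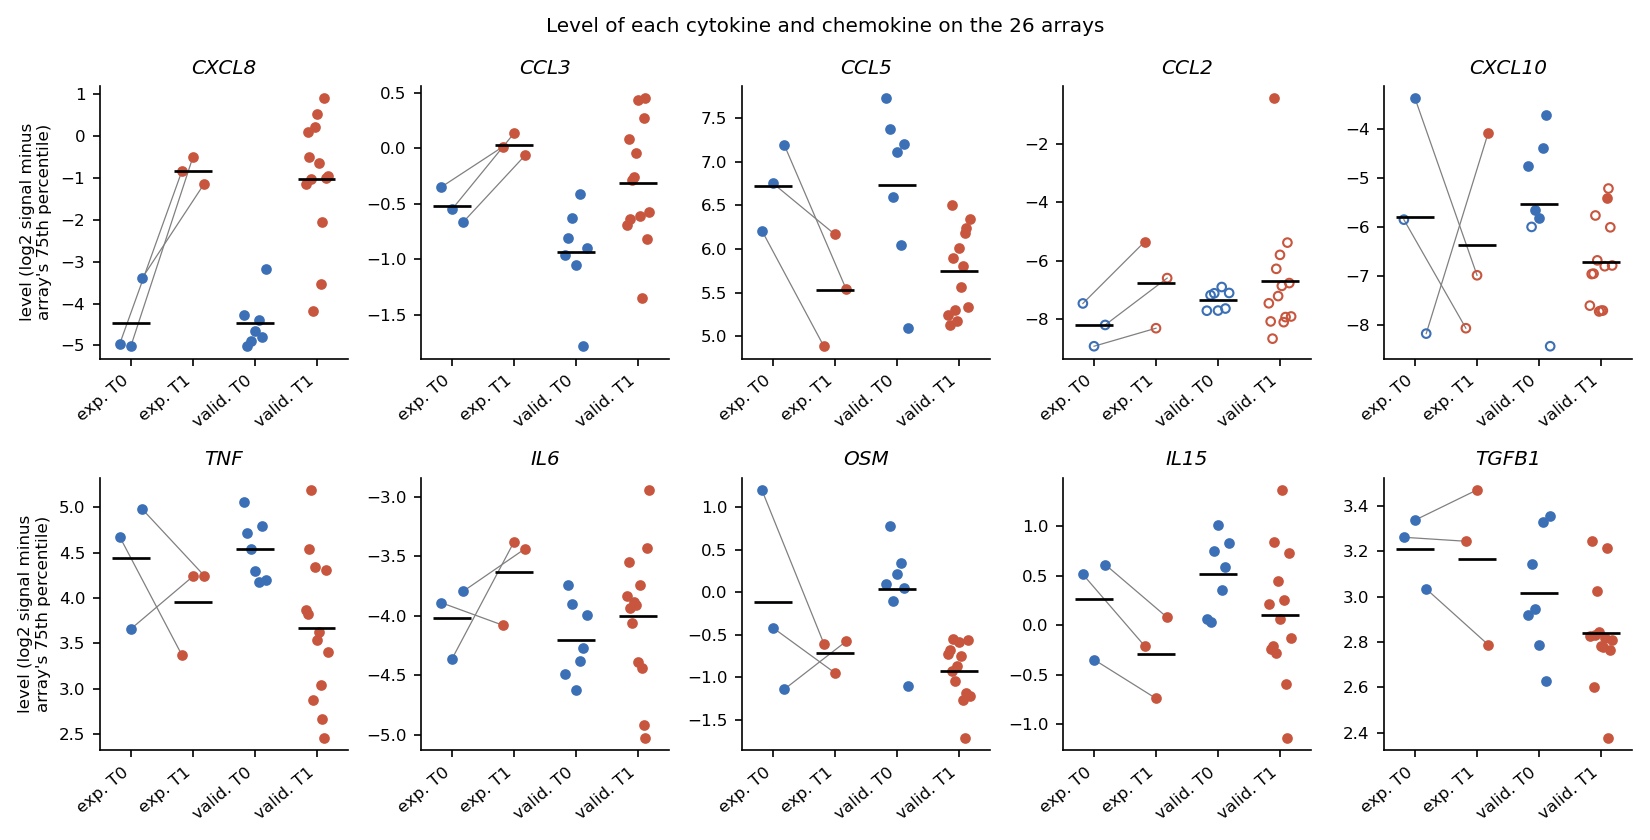
Level of each of the 10 genes (log2, relative to the 75th percentile of the array, y axis, a separate scale for each gene) on the 26 arrays, by set (exp., experimental; valid., validation) and time point. Points are horses, open where the probe was not well above background, black bars are group means and grey lines join the 2 arrays of an experimental horse; CXCL8 separates T0 from T1 on all but a few arrays, and CCL2 and most CXCL10 points are open.

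CXCL8, the main chemokine that recruits neutrophils, was over-expressed at T1 in both sets and had the largest fold change of the 8 genes tested. In the experimental horses 2, 32 and 41 its level went from -4.96 to -0.85, from -5.01 to -0.50 and from -3.39 to -1.14. Each of the 3 horses rose, and no T1 array overlapped with T0. The log2 fold change was 3.62 (SE 0.45, n = 3 pairs, 95% interval 2.60 to 4.65, limma adjusted p = 0.00411), a 12.3-fold rise. The validation horses lay at -5.02 (lowest), -4.66 (median) and -3.18 (highest) at T0 and at -4.18, -0.95 and 0.90 at T1. Of the 13 validation horses at T1, 11 lay above every T0 horse, the exceptions being horse 24 at -4.18 and horse 46 at -3.53. The log2 fold change in that set was 3.44 (SE 0.55, 95% interval 2.30 to 4.57, limma adjusted p = 5.98e-05), a 10.8-fold rise.

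The 7 CXCL8 probes ran the same way, by 2.69 to 3.62 in the experimental and by 2.85 to 3.86 in the validation set (differences of mean log2 level). Within each of the 5 scan days that held both time points, CXCL8 was higher at T1, by 0.95 to 4.33. The size of the change depended on the background correction, since its log2 fold change was 1.94 and 1.95 in the 2 sets with a normexp correction and 2.04 and 2.05 with the deposited series values, at the same side of the threshold. In the experimental set the call was lost without horse 2 (3.38, adjusted p = 0.0517) and without the filter on dim probes (adjusted p = 0.0688).

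Neutrophil markers moved with CXCL8, and monocyte markers did so too. The mean level of the 10 neutrophil markers was 2.27 to 4.51 at T0 and 4.29 to 5.67 at T1 in the validation horses, and 2.17 to 3.74 at T0 and 4.77 to 4.98 at T1 in the experimental horses. The mean of the 9 monocyte markers was 2.71 at T0 and 3.94 at T1 in the validation set, and 2.63 and 3.97 in the experimental set. Validation horse 47 had both the highest CXCL8 level (-3.18) and the highest neutrophil mean (4.51) of its T0 group. Its monocyte mean (3.46) was also the highest of that group, and its T cell mean (-0.49) the lowest. Horses 24 and 46, whose CXCL8 was low at T1, had neutrophil means of 4.91 and 4.55, within the T1 range. In whole blood, more cells of a type and more mRNA in each cell cannot be told apart. The parts of the neutrophil and monocyte markers in the CXCL8 result were not tested.

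**Figure D2:**
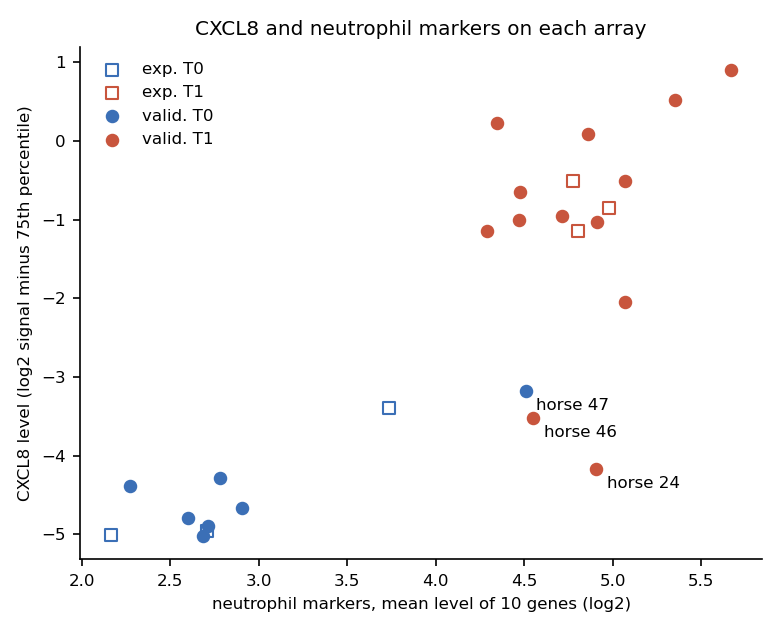
CXCL8 level (y axis, log2, relative to the 75th percentile of the array) against the mean level of 10 neutrophil markers (x axis, log2) for each of the 26 arrays, squares for the experimental and circles for the validation set. T0 arrays lie at low and T1 arrays at high values of both, apart from horse 47 at T0 and horses 24 and 46 at T1, which have neutrophil means of 4.51 to 4.91 and CXCL8 levels from -4.18 to -3.18.

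CCL3 (MIP-1 alpha), a chemokine of macrophages and neutrophils, was modestly higher at T1. In horses 2, 32 and 41 it went from -0.35 to 0.01, from -0.55 to 0.13 and from -0.67 to -0.07, up in each with no overlap, although the log2 fold change of 0.55 (SE 0.31, limma adjusted p = 0.27) did not pass. In the validation set it lay at -1.78, -0.90 and -0.41 (lowest, median, highest) at T0 and at -1.35, -0.29 and 0.45 at T1. There 7 of the 13 horses at T1 were above every T0 horse, and the rise of 0.62 (SE 0.23, adjusted p = 0.0316, 1.54-fold) passed the threshold. The validation call was lost with the scan day as a term (0.31, adjusted p = 0.256), with the mean over both probes (0.48, adjusted p = 0.0517) and with the slide as a random block (0.52, adjusted p = 0.0523), and T1 was higher on 4 of 5 scan days.

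CCL5 (RANTES), a chemokine made largely by cytotoxic and memory T cells and NK cells, was under-expressed at T1 in the validation set and lower in each experimental horse. Horses 2, 32 and 41 went from 6.21 to 4.89, from 6.75 to 6.17 and from 7.20 to 5.54, with every T1 array below every T0 array. The log2 fold change of -1.19 (SE 0.34, 95% interval -1.97 to -0.41) had a limma adjusted p of 0.0599. It passed with 5 of the 11 other settings, for example quantile normalization (-1.42, adjusted p = 0.0275). With the rest it did not, for example without the filter on dim probes (limma adjusted p = 0.2) and in a fit of all 26 arrays (adjusted p = 0.108). The validation horses lay at 5.10, 7.11 and 7.73 at T0 and at 5.13, 5.81 and 6.50 at T1. Of the 7 horses at T0, 5 were above every T1 horse, and the lowest value at T0 was that of horse 47. The fall was -0.99 (SE 0.29, adjusted p = 0.00881, 1.98-fold lower) with that horse and -1.26 (adjusted p = 0.000297) without it.

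The 3 CCL5 probes, one across a genomic gap of 4130 bases at chr11:36087534-36091723, differed by -1.43 to -1.19 in the experimental and by -1.26 to -0.99 in the validation set. T1 was lower on 4 of the 5 scan days. In the validation set 9 of 9 T cell markers and 6 of 8 NK and cytotoxic markers were lower, beside 23.9% of all gene names, while NCR1 was higher (1.34). Horse 47, with the lowest CCL5 of the validation horses at T0, also had their lowest T cell mean (-0.49). Its mean of the NK and cytotoxic markers (-0.07) was the lowest of that group as well. The part of these cells in the CCL5 result was not tested.

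The 2 chemokines near the detection limit were in no test of T1 against T0. For CCL2 (MCP-1), which draws monocytes out of the bone marrow and into tissue, the level at T0 was -6.91 at most in the validation horses, on none of them well above background. At T1 validation horse 21 stood at -0.43 on the probe used, with a raw signal of 331, where the next highest array stood at -5.35. That signal came from 1 probe only, the one at mRNA base 206 (chr11:37348878-37349314, minus strand, across a gap of 377 bases). The 5 probes tiled from mRNA base 519 to 523 of the same transcript stood between -7.49 and -7.41 on that array, none of them well above background. Of these 5, 3 were well above background on 1 array each, never that of horse 21: the probe at base 523 on an experimental array at T0 (-3.92), and those at bases 520 and 522 each on a validation array at T1 (-2.03 and -4.41). A second gene name described as CCL2 was not well above background on any array.

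CXCL10 (IP-10), an interferon-induced chemokine, ranged from -8.43 to -3.72 (median -5.66) in the validation horses at T0 and from -7.72 to -5.22 (median -6.80) at T1. Its 5 probes differed between T1 and T0 by -1.26 to -0.92 in the validation set (differences of mean log2 level), and each was well above background on 3 to 8 of 26 arrays. They have 60 bases each and start between mRNA bases 171 and 252. Neighbouring ones overlap, so that they are not 5 separate measurements. Without the filter on dim probes the difference in the validation set was -1.17 (adjusted p = 0.0769). On the probe used, experimental horse 32 went from -3.39, well above background, to -6.98, not so. Horse 41 went the other way, from -8.17 to -4.09, so that the 3 horses did not share a direction on that probe.

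**Figure D3:**
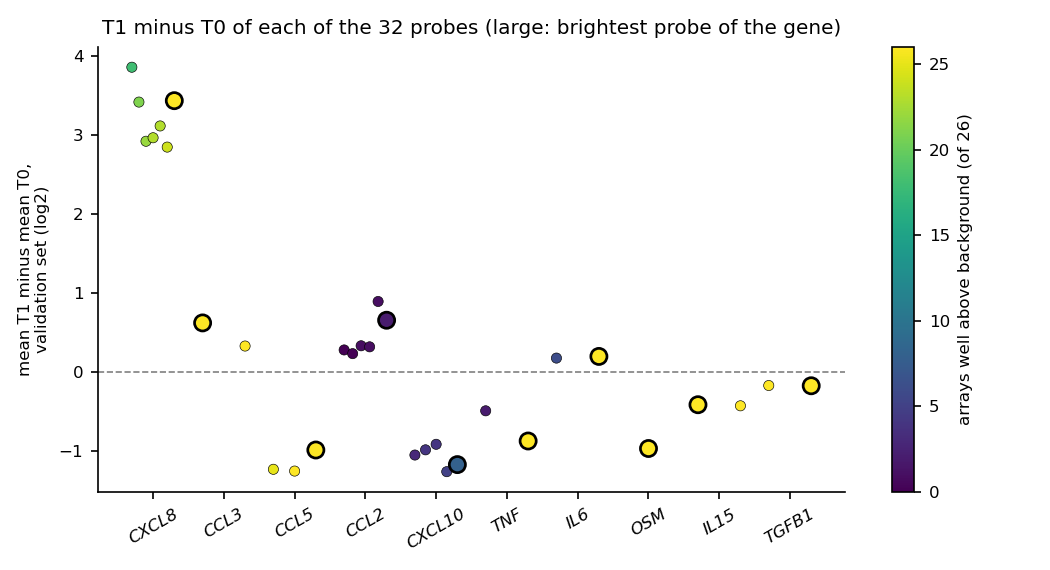
Difference of mean log2 level, T1 minus T0, in the validation set (y axis) for each of the 32 probes of the 10 genes (x axis), with the colour giving the number of arrays, of 26, on which the probe was well above background and large symbols the probe used for the gene. All 7 CXCL8 probes lie between 2.85 and 3.86, the 3 CCL5 probes between -1.26 and -0.99, and the probes of CCL2 and CXCL10 are dark, that is rarely above background.

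TNF, the early cytokine of acute inflammation, was under-expressed at T1 in the validation set, but the call was lost with the scan day as a term. Horses 2, 32 and 41 went from 4.68 to 3.38, from 3.66 to 4.24 and from 4.98 to 4.25, lower in 2 and higher in 1 (log2 fold change -0.49, SE 0.41, limma adjusted p = 0.455). That value was -0.08 without horse 2 and -1.02 without horse 32. In the validation set TNF lay at 4.18, 4.54 and 5.07 (lowest, median, highest) at T0 and at 2.46, 3.63 and 5.19 at T1. Of the 13 horses at T1, 9 were below every T0 horse and 1, horse 21, was above them all. The log2 fold change was -0.87 (SE 0.30, adjusted p = 0.0218, 1.83-fold lower). With the scan day as a term it was -0.48 (adjusted p = 0.201), and T1 was lower on 3 of 5 scan days and higher on 2.

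The 2 TNF probes did not measure alike. The 60-base probe was well above background on 26 arrays and the 50-base probe on 2, and their differences were -0.49 and -1.92 in the experimental set and -0.87 and -0.49 in the validation set. With the mean over both, the experimental set gave -1.20 (adjusted p = 0.0438) and the validation set -0.68 (adjusted p = 0.00272), so that the probes changed the call in the experimental set and not in the validation set.

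IL6, the cytokine that drives the acute phase response, did not pass in either set. Horses 2, 32 and 41 went from -3.89 to -4.08, from -4.36 to -3.38 and from -3.79 to -3.44. The validation horses lay at -4.62, -4.27 and -3.74 at T0 and at -5.02, -3.91 and -2.94 at T1, with the T0 range inside that of T1. The log2 fold changes were 0.38 (95% interval -0.41 to 1.17, limma adjusted p = 0.493) and 0.20 (95% interval -0.28 to 0.68, adjusted p = 0.518). The first value was 0.67 without horse 2 and 0.08 without horse 32. Both intervals include 0, and their upper ends lie below the interval of CXCL8. The signal was that of the 50-base probe, above background on 26 arrays, whereas the 60-base probe was so on 6.

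OSM was under-expressed at T1 in the validation set. Its levels there were -1.10, 0.10 and 0.78 (lowest, median, highest) at T0 and -1.71, -0.87 and -0.54 at T1, so that 6 of 7 horses at T0 lay above every T1 horse. The horse at T0 that did not was again horse 47, at -1.10. The log2 fold change was -0.97 (SE 0.20, 95% interval -1.39 to -0.55, adjusted p = 0.000661, 1.96-fold lower), -1.16 without horse 47, and T1 was lower on 5 of 5 scan days, with differences of -1.42 to -0.67. The experimental horses did not move together: horse 2 went from 1.20 to -0.60, horse 32 from -0.42 to -0.95 and horse 41 from -1.14 to -0.58. Their log2 fold change of -0.59 (SE 0.45, limma adjusted p = 0.409) became 0.02 without horse 2.

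IL15, which sustains NK and memory CD8 T cells, was lower in each experimental horse, from 0.51 to -0.21, from -0.35 to -0.74 and from 0.61 to 0.08 in horses 2, 32 and 41, but did not pass (-0.55, SE 0.31, limma adjusted p = 0.27). In the validation set it lay at 0.03, 0.59 and 1.01 at T0 and at -1.13, 0.06 and 1.37 at T1, and the difference of -0.42 (SE 0.26, adjusted p = 0.204) did not pass either. Its 2 probes gave like differences, -0.55 and -0.66 in the experimental and -0.42 and -0.43 in the validation set. They share 22 bases (in capitals), however, and are not independent.
IL15, 60-base probe, bases 1 to 30: TATCTTCTAATGGGAATGTTACagaatctg
IL15, 50-base probe, bases 21 to 50: cagcagctTATCTTCTAATGGGAATGTTAC

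Over all 26 arrays TGFB1 had the lowest SD of the 10 genes (0.274), although not among the experimental horses at T1 (0.347, against 0.0998 for CCL3). It went from 3.26 to 3.24, from 3.34 to 3.47 and from 3.03 to 2.79 in horses 2, 32 and 41, and in the validation set from 2.63, 2.94 and 3.35 (lowest, median, highest) to 2.38, 2.82 and 3.24. The groups overlapped almost entirely. The log2 fold changes were -0.04 (95% interval -0.75 to 0.66, limma adjusted p = 0.94) and -0.17 (95% interval -0.45 to 0.10, adjusted p = 0.293).

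**Figure D4:**
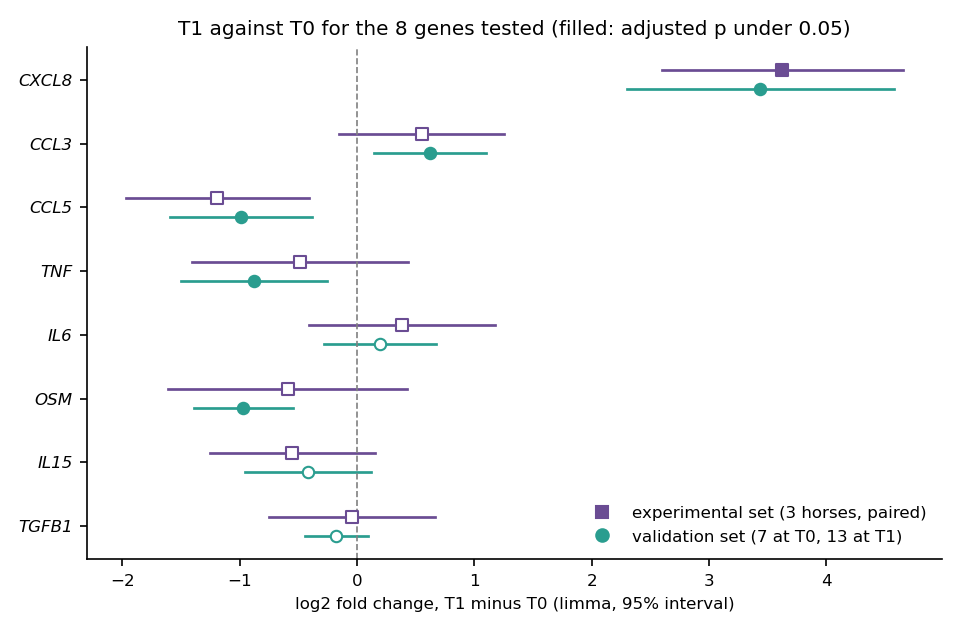
Log2 fold change, T1 minus T0, of the 8 genes tested (x axis) with its 95% interval from limma, squares for the experimental set (3 horses, paired) and circles for the validation set (7 horses at T0 and 13 at T1), filled where the adjusted p was under 0.05. CXCL8 lies at 3.62 and 3.44, and the other 7 genes lie between -1.19 and 0.62.

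The second question was whether the 2 sets differed in their response. None of the 8 genes detected on all arrays differed between the sets in limma at this threshold, and neither did any of the 17888 gene names tested (0% called, with 99 at an unadjusted p under 0.05). For CXCL8 the difference between the log2 fold changes was 0.19 with a 95% interval of -1.998 to 2.37, and for CCL5 it was -0.20 with an interval of -1.42 to 1.02. CXCL10 entered this test only through the validation horses at T0, where it was well above background in 5 of 7, and its value is not read here. For TNF it was 0.39 (-0.86 to 1.64) and for OSM 0.38 (-0.66 to 1.41). With 3 experimental horses these intervals are wide, and they do not show that the sets responded alike.

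The genes around the 10 were followed by lists of their receptors, of other cytokines, of the enzymes that release them, of NF-kB and of the factors that shorten or dampen their mRNA. Of 21 other cytokines and chemokines tested in the validation set, 4 were higher and 5 lower, a share near the 44.2% of all gene names called in that set. In the experimental set 4 of 21 were higher and 4 lower, beside 6.2% and 3.96% of all gene names. Whether the list departs from these shares was not tested. Its median log2 fold change in the validation set was -0.29. The largest rises were those of CXCL1 (3.82, SE 0.42, adjusted p = 2.5e-06) and CXCL2 (2.84, SE 0.34), which bind CXCR2 as CXCL8 does, and of IL18 (2.33, SE 0.26), an inflammasome product. In the experimental set they were 4.21, 3.57 and 2.39, and all 3 passed. The probes used for CXCL1 and CXCL2 have no run of more than 7 bases in common, but the CXCL1 probe is identical at 57 of 60 bases to that of a second gene name described as CXCL2, so that its signal may hold both transcripts. The largest falls were those of LTB (-1.99), IL23A (-1.39) and TNFSF13B (-1.32), cytokines of lymphoid tissue, of the Th17 axis and of B cell survival, and they passed in the experimental set as well.

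Of 12 receptor genes tested, 4 were higher and 3 lower in the validation set (1 and 1 in the experimental set), beside 20.3% higher and 23.9% lower over all gene names. CXCR2, the receptor of CXCL8, rose by 1.05 (SE 0.23, adjusted p = 0.000918) and by 1.18 in the experimental set (adjusted p = 0.0453). It is also 1 of the 10 neutrophil markers. IL6R (0.89) and TNFRSF1A (0.84), the receptors of IL6 and TNF, rose in the validation set only by this threshold, with 1.06 and 1.16 in the experimental set (adjusted p = 0.101 and 0.0977). The difference between the sets was not past the threshold for any gene name. CXCR3, the receptor of CXCL10, fell by 1.49 (SE 0.34, adjusted p = 0.0013) and TGFBR2, the type II receptor of TGFB1, by 1.21.

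Among 8 genes of cytokine release and activation, ADAM17, the protease that sheds TNF, and ADAM10 were higher in the validation set, by 0.41 (adjusted p = 0.0372) and 0.39 (adjusted p = 0.0198), and none passed in the experimental set. Those 2 of 8 are a smaller share than the 44.2% of all gene names. Of 19 genes of NF-kB and its targets, 7 were higher and 3 lower in the validation set, beside 20.3% higher and 23.9% lower over all gene names. In the experimental set 4 were higher and 0 lower, beside 6.2% and 3.96%. TNFAIP6, a secreted protein induced by TNF, rose by 2.53, BCL3 by 1.80 and NFKBIA, the inhibitor that NF-kB itself induces, by 1.70 (adjusted p = 5.98e-05), and they passed in both sets. RELB (-0.50), NFKBIB (-0.41) and NFKB2 (-0.38) were lower in the validation set. Of 8 genes of mRNA decay and dampening, 5 were higher and 1 lower (4 and 0 in the experimental set), with a median of 1.04. The same shares of all gene names stand beside these counts, and whether either list departs from them was not tested. DUSP1, a phosphatase that ends p38 signalling, rose by 1.91, SOCS3, the feedback inhibitor of IL6 signalling, by 1.76 and IRAK3, an inhibitor of Toll-like receptor signalling, by 1.66. In the experimental set they rose by 2.61, 2.33 and 1.75. ELAVL1, an RNA-binding protein that stabilizes cytokine mRNA, was lower in the validation set (-0.69).

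The blood cell markers give the setting of these changes. In the validation set 8 of 10 neutrophil markers were higher and none lower (median 2.43, led by LTF at 3.32, MMP8 at 3.14 and S100A8 at 3.09), as were 5 of 9 monocyte markers (CD163 at 4.19 and VCAN among them). All 9 T cell markers were lower (median -1.47), with CD3E, CD4 and CD2 leading, and so were 6 of 7 B cell markers (CD79B, CD79A and CD22 first) and 6 of 8 NK and cytotoxic markers (GZMB at -2.24, NKG7 and GNLY first), while NCR1 of the last list was higher (1.34). In the experimental set the counts were 7 higher of 10, 5 higher of 9, 7 lower of 9, 3 lower of 7 and 5 lower of 8. Over all gene names 20.3% were higher and 23.9% lower in the validation set, and 6.2% and 3.96% in the experimental set. None of the 4 platelet markers tested passed. HBB and HBA, the globins of red cells, were higher in both sets, by 2.25 and 1.73 in the validation set, and of 4 muscle markers TNNT1 alone passed there (-1.28). The parts of these cell types in the results on the 10 genes were not tested.

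**Figure D5:**
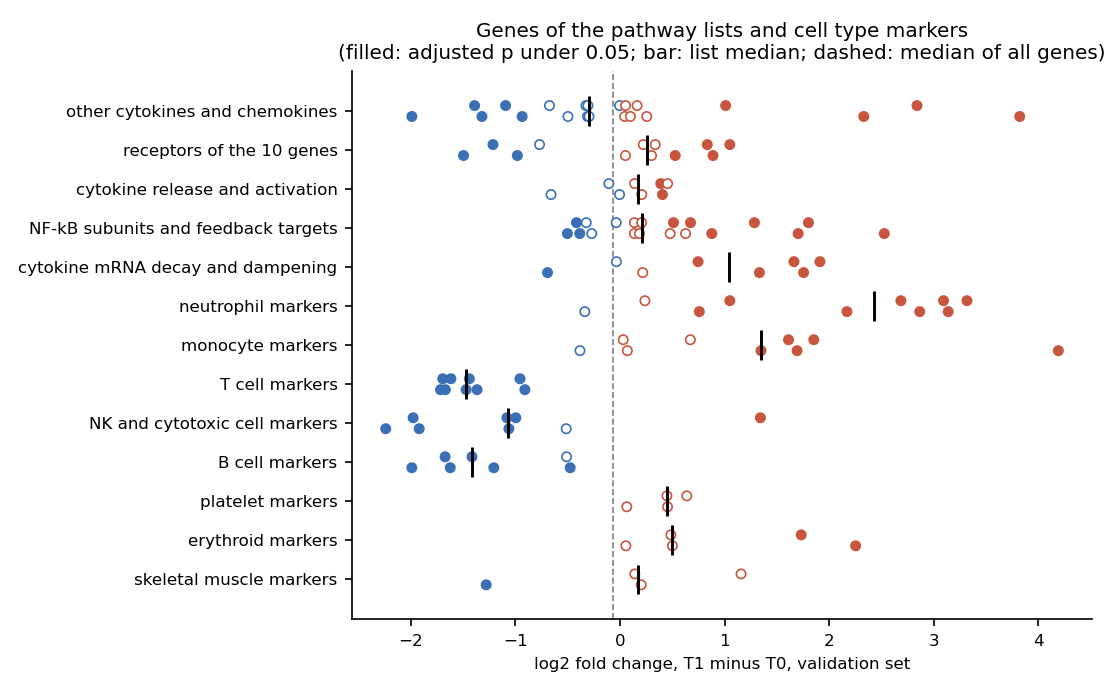
Log2 fold change, T1 minus T0, in the validation set (x axis) of each tested gene of the 5 pathway lists and the 8 lists of cell markers (y axis), filled where the limma adjusted p was under 0.05, with a black bar for the median of each list and a dashed line for that of all gene names (-0.07). The neutrophil list has its median at 2.43 and the T cell list at -1.47.

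The genes whose levels followed each of the 10 most closely from horse to horse were sought among 9304 named genes over the 26 arrays, after each group's mean was subtracted. These correlations are descriptions across arrays that share slides and scan days, and they carry no test. For CXCL8 the 3 closest were MIP-2BETA, described in the files as CXCL3 (r = 0.86), CXCL2 (r = 0.85) and CXCL1 (r = 0.82). For CCL5 the closest was GZMB, a granule protease of cytotoxic cells (r = 0.92), followed by C5H1orf21 (r = 0.85) and PLEKHA1 (r = 0.84). For OSM they were NEK6 (r = 0.87), CYP2C114 (r = 0.75) and TADA2A (r = 0.71). For TNF, 26 named genes followed its probe with r over 0.9, led by HES7, INPPL1 and DNPH1 (r = 0.98 each). The other 7 had at most 1 such gene. At r over 0.8, however, IL6 had 86 such genes and TNF 71, where each of the others had 1 to 8. Whether these probes share a technical property was not tested, and the levels and fold changes of TNF and IL6 carry that limit. The 3 closest to IL6 were TMEM269, HNF4A and TUBA8 (r from 0.88 to 0.89), those to CCL3 were RNF181, TRAPPC3 and MRPS25 (0.82 to 0.84), those to IL15 were CTSS, NCKAP1 and DYNC1LI1 (0.81 to 0.83), and those to TGFB1 were GSE1, UCP2 and RENBP (0.82 to 0.86).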

How the data were processed

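The deposited scanner files hold an intensity per spot made by Agilent Feature Extraction 10.7.3.1, with the background subtracted, spatial trends removed and no normalization between arrays. A table deposited for the whole series gives log2 values of these arrays as the authors normalized them, limma being the tool named in the labels, and its order of probes within an array is that of the signal minus local background. These values served as an alternative. Control spots and 386 outlier spots were left out, repeated spots were reduced to their mean, log2 signals were set relative to the 75th percentile of their array, and for each gene name the brightest probe was used. Gene names well above background on at least 3 of 6 (experimental), 7 of 20 (validation) or 7 of 26 arrays (difference between the sets) were tested with limma 3.58.1 and statmod 1.5.0 in R 4.3.3, with Benjamini-Hochberg adjustment over all tested and a threshold of 0.05. The horse was a fixed block in the experimental set and a random block in the test of the difference, and no block was used in the validation set, with 1 array per horse. The labels give both arrays of an experimental horse the same animal. As a check, the correlation over gene names of their deviations from the group means was -0.00805 in horse 2, 0.213 in horse 32 and 0.192 in horse 41, while between different horses it ranged from -0.354 to 0.186, so that the pairing rests on the labels and not on this check.

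The 10 genes, the gene lists and the marker lists were chosen with earlier results of these data known. Named are all 10 genes and, from each other list, the 3 genes with the largest rise and the 3 with the largest fall among those past the threshold in the validation set, and the 3 named genes most like each of the 10. A few items that this rule would name are not reported here. Of 150 listed genes, 146 were on the array. The fits were tested on simulated data with 200 changed gene names, in Python 3.11.15 and R. The number of arrays limits the precision.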

Additional observations from a re-analysis of the deposited data

Results flagged for a closer look

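At T0 the CXCL8 level of validation horse 47 was -3.18, set apart from the other 6 validation horses at T0, of which the next stood at -4.28, by a gap of 0.598 of the whole range of the group, past Dixon's critical value at the 95% level. Chance alone gives such a mark, at either end, in about 1 of 20 groups. All 10 genes were looked at in the same 7 horses, so that the looks are not independent and 1 mark can arise by chance. The same horse had the lowest CCL5 (5.10), OSM (-1.10) and CXCL10 (-8.43) levels and the highest mean of the neutrophil markers (4.51) among the 7 horses at T0. Its mean of the monocyte markers (3.46) was also the highest, and its T cell (-0.49) and NK and cytotoxic (-0.07) means were the lowest. Without this horse the validation fold changes were 3.65 for CXCL8, -1.26 for CCL5 and -1.16 for OSM.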

How the results depend on the processing

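In the validation set 92 of 96 values of single genes under the alternatives kept their direction and their side of the threshold, and the 4 that did not were CCL3 under 3 settings and TNF with the scan day as a term, as given above. The number of the 10 genes past the threshold there fell from 5 to 3 with the scan day as a term. Over all 17403 gene names tested it fell from 7687 to 7209. In the experimental set 78 of 88 values kept their direction and their side of the threshold. The number past the threshold there was 2 with normexp, with quantile normalization, with the deposited series values and with a filter that asks for every array, 3 with the mean over all probes, 0 without a filter, and 0 to 1 on leaving out 1 horse at a time. Over all gene names, against 1777 in the main setting, it was 2385 with normexp, 2037 with quantile normalization and 2237 with the series values. It was 1763 with the mean over all probes, 46 without a filter, 2842 with that stricter filter and 2994 in a fit of all 26 arrays. Without each horse in turn it was 173 to 2982 (173 without horse 2, 289 without horse 32). Of the 1777, 61.0% were higher at T1, against 49.6% with quantile normalization, 48.2% with normexp and 47.5% with the series values. Without the replicate block 1785 gene names and 1 of the 10 genes (CXCL8) passed in the experimental set, and none in the difference between the sets, and the block changed no call among the 10 genes. On leaving out 1 horse, OSM ranged from -1.17 to 0.0171 (without horse 2) and TGFB1 from -0.131 to 0.0577 (without horse 41) in the experimental set. In the difference between the sets, where nothing passed under any setting, 17 values of single genes changed sign and 90 did not. These counts include CXCL10, whose values in this test are not read. CXCL8 was -0.00618 with normexp and -0.00976 with the series values. With the mean over all probes CXCL8 was -0.22, TNF -0.52, IL6 -0.12, CCL3 0.039 and CXCL10 -0.0033. Without horse 47 CXCL8 was -0.03 and CCL5 0.0731. The experimental horses were left out of this difference as an alternative chosen after seeing the data. Without 1 of them, CXCL8 ranged from -0.26 to 0.87, CCL3 from -0.139 to 0.0207, IL6 from -0.11 to 0.47, TNF from -0.14 to 0.80, CCL5 from -0.50 to 0.03, CXCL10, at background on most arrays, from -1.73 to 2.11 and OSM from -0.20 to 0.98. The causes of these shifts were not tested. Signals of IL6 and of CXCL8 at T0 were close to background, which limits the precision of their fold changes.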

Other observations

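Among the cytokines outside the 10 genes, those of this paragraph were chosen after their values were seen. IL1A, IFNG and CXCL9 were not well above background on any of the 26 arrays. IL1B and its antagonist IL1RN were well above background on all 26, and their log2 fold changes in the validation set were 0.05 (SE 0.27, limma adjusted p = 0.887) and -0.31 (SE 0.18, adjusted p = 0.184). IL10, an anti-inflammatory cytokine, rose by 1.01 (SE 0.25, adjusted p = 0.00263) in the validation and by 1.26 (SE 0.32, adjusted p = 0.044) in the experimental set. LTA and TNFSF10, members of the TNF family, fell by 1.09 (SE 0.18) and by 0.93 (SE 0.22) in the validation set.

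Between the 8 genes detected on all arrays, the correlations over the 26 arrays after each group's mean was subtracted ranged from -0.45 (CCL5 and TGFB1) to 0.49 (TNF and IL15), as a description of arrays that share slides and scan days. CXCL8 had its highest value with CCL3 (0.42) and lay near 0 with IL15 (0.00862) and IL6 (0.0191).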
